A study of Rattus norvegicus with 30 samples.

Results

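Antioxidant defence in the rat testis was followed through 10 genes, most of which are textbook targets of the transcription factor NRF2, among the 17322 genes of the expression table. The members were the rows whose Entrez identifiers carry the rat symbols Slc7a11, Gclc, Gclm, Txnrd1, Srxn1, Hmox1, Nqo1, Sod2, Cat and Gpx3, and all 10 were found and passed the filter on low values in every comparison. NRF2, encoded by Nfe2l2, is held in the cytoplasm by KEAP1 and degraded, and electrophiles or oxidants that modify KEAP1 let it reach the nucleus, where with a small MAF partner it binds antioxidant response elements that BACH1 otherwise occupies. Its best known targets make glutathione, recycle thioredoxin and peroxiredoxin, and remove haem and quinones. SOD2, catalase and GPX3 dispose of superoxide and peroxide and also answer to other signals. In the testis these enzymes are spread over somatic and germ cells, and spermatogenic cells rich in unsaturated lipids are regarded as sensitive to oxidation.

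The study asked how organotypic culture of prepubertal Wistar Han rat testis departs from maturation in the animal. RNA sequencing covered in vivo testes at 6 ages, namely 8.5 and 14.5 days postpartum (dpp), 24.5 and 30.5 dpp, then 36.5 and 53.5 dpp, and explants of 8.5 dpp testis kept on agarose for 6, 16, 22 or 28 days (D6, D16, D22, D28), so that D6 has the age of 14.5 dpp testis, D16 that of 24.5 dpp, D22 that of 30.5 dpp and D28 that of 36.5 dpp. Each group had 3 libraries except 14.5 dpp, where 1 column, marked as an outlier by the submitters, held 0 for every gene, which left 2. All explants shared a serum replacement medium with retinol and vitamin E, itself an antioxidant, and their necrotic centre was removed before RNA extraction. The study left D6 out of its own test of expression because its cell composition differed. A cultured library pooled 12 explants, taken from at least 3 young males by the paper's account, and an in vivo library came from a testis of its own. The culture itself, its medium and the cutting of the tissue enter every comparison with the testis together and cannot be told apart.

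The promoters are shown because an antioxidant response element is the feature by which NRF2 targets are usually recognised. RefSeq windows of 300 bases (250 before and 50 after the annotated start, GRCr8, printed along the gene's strand) were held for 9 of the 10 members, with 2 windows for Txnrd1, and each was searched on both strands for TGACNNNGC. Hmox1 had no window and was not searched. The motif stood in the windows of Gclm, Txnrd1 and Sod2, in capitals here, always on the opposite strand and 172, 78 and 35 bases before the start. Of all 33469 windows of that length, 12.1% held it. The windows of Srxn1 and Nqo1, the members with the highest ratios of group medians against 14.5 dpp at each culture time, held no match to these letters and are given for comparison. Only this form was searched, so other forms of the element are not covered. The Srxn1 window holds tgagtcagc, which has G where the searched form has the C of TGAC.
Gclm, chr2:213031885-213032184, plus strand: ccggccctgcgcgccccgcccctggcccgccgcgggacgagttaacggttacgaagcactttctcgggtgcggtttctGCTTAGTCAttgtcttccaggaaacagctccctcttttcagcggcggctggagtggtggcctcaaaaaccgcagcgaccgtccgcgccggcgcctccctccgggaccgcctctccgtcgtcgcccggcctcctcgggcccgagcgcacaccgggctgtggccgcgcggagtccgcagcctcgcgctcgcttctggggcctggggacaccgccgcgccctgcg
Txnrd1, the downstream of its 2 starts, chr7:22755855-22756154, minus strand: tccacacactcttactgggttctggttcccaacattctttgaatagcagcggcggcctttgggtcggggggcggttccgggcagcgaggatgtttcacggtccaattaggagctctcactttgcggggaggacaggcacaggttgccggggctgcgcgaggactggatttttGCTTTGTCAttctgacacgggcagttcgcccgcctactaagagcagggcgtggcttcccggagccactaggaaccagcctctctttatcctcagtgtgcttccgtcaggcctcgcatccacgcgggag
Sod2, chr1:50050119-50050418, minus strand: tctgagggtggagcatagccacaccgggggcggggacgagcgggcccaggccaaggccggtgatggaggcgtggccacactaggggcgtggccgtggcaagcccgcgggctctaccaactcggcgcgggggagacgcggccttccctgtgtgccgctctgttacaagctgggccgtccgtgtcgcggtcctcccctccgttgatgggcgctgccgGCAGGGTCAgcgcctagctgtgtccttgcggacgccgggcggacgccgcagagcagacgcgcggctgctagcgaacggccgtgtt
Srxn1, chr3:161064562-161064861, plus strand: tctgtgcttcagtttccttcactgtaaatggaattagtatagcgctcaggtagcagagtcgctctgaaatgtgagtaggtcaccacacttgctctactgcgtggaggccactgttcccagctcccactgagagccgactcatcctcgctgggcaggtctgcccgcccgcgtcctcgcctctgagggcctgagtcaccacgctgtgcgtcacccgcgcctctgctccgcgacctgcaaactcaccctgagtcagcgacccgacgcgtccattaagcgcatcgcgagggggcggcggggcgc
Nqo1, chr19:52220218-52220517, minus strand: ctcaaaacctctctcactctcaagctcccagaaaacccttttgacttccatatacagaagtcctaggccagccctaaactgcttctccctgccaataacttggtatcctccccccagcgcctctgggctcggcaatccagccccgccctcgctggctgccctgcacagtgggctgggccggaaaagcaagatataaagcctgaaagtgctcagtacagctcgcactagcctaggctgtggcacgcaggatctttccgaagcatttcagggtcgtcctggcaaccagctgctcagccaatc
A match is a string of letters, not a measured binding site, and elements farther from the start lie outside these windows.

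Expression is given as FPKM, mapped fragments scaled to transcript length and to the size of the library, so levels can be compared between genes. The deposited table gives no read totals. The steps between low values put the libraries' relative depths between 0.847 and 1.48 of their median, and 12520 to 13563 genes were above 0. Some genes that every cell uses, such as Txn1, are listed at 0, but no member was at 0 in any library. A library is a mixture of cells, and fewer cells of a type cannot be told apart from less RNA per cell. The summed germ cell markers (7 of 8 listed genes found) rose from between 27.7 and 30.5 FPKM at 8.5 dpp to between 11268 and 16818 at 53.5 dpp, and lay between 53.2 and 130 in culture, where Prm1 was at 0. The 6 Leydig markers summed to between 66.3 and 595 in vivo and between 12.7 and 36.8 in culture. The 7 macrophage markers summed to between 21.3 and 64.4 in vivo and between 66.2 and 126 in culture, with Cd163 at 0 there. The 7 Sertoli markers summed to between 246 and 2377 in vivo and between 1040 and 3926 in culture, and the 5 endothelial markers to between 1.77 and 46.9 and between 47.3 and 84.7. The 4 peritubular markers ran from 31.1 to 693 in vivo and from 68.2 to 334 in culture. The 2 matched red cell markers of 3 summed to between 14.5 and 699 in vivo and to at most 8.49 in culture, and the 4 epididymal markers never exceeded 0.763.

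**Figure D1:**
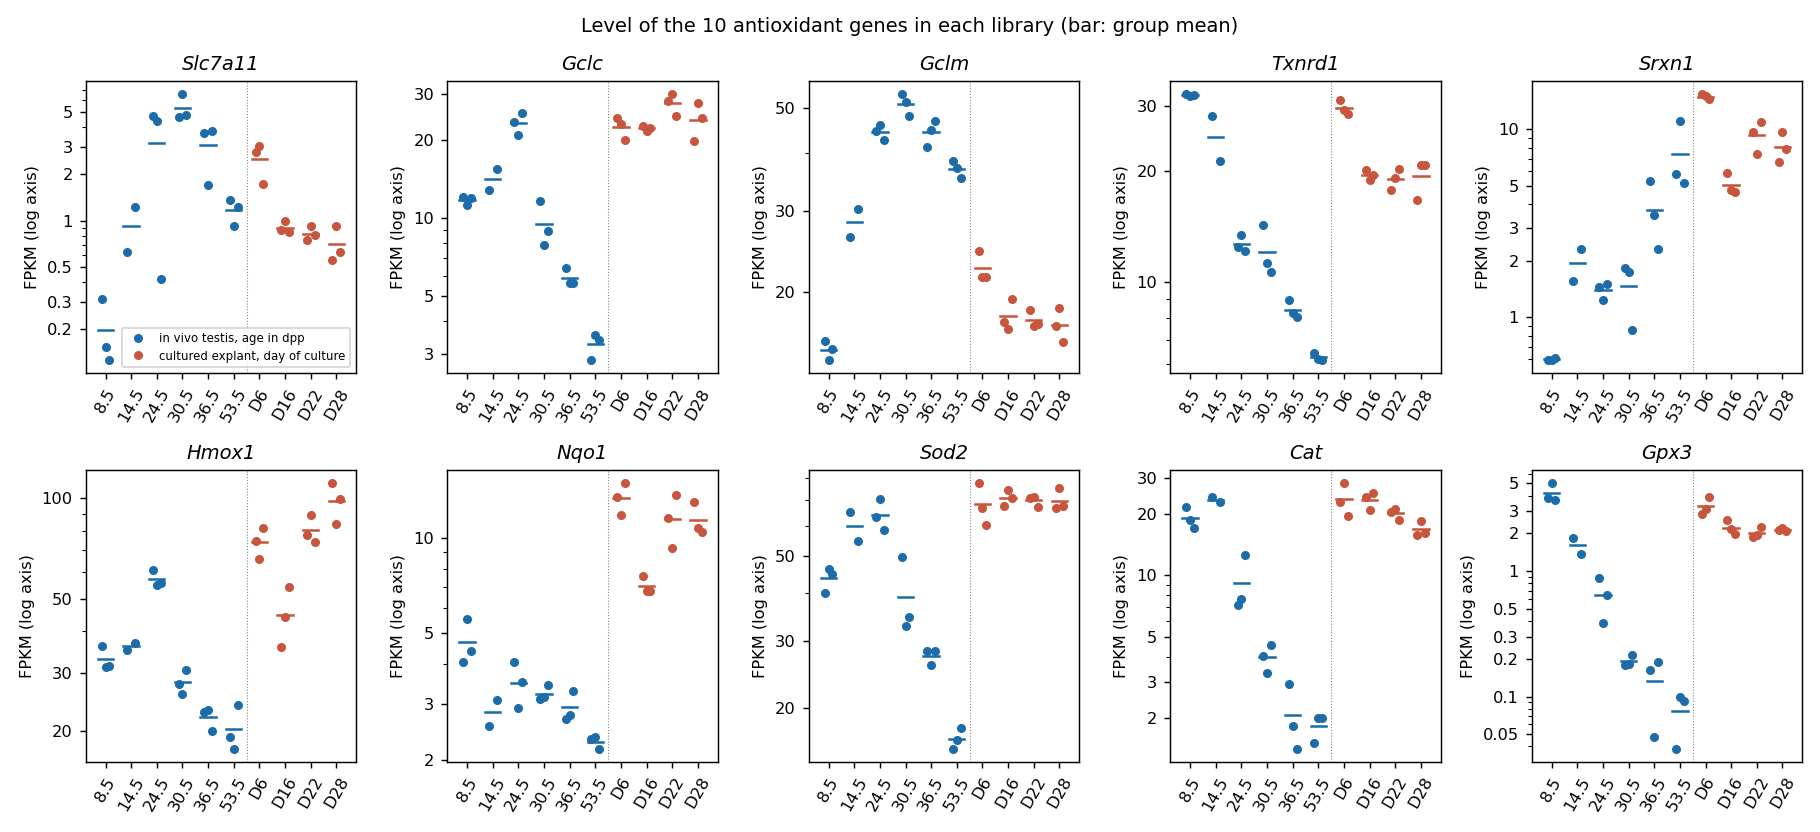
FPKM of the 10 genes in each of the 29 libraries on log axes, in vivo ages in blue and days of culture in red, with a bar at each group mean. All 12 cultured libraries of Nqo1 lie above every in vivo library, and all 12 of Gclm lie below every in vivo library from 14.5 dpp on.

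Srxn1, which encodes the sulfiredoxin that repairs overoxidised peroxiredoxins, had the highest ratios of group medians against 14.5 and 8.5 dpp at each culture time. It was at 0.597, 0.595 and 0.607 FPKM at 8.5 dpp and at 1.57 and 2.32 at 14.5 dpp. The explants held 15.4, 15.0 and 14.4 at D6. They fell to 5.87, 4.77 and 4.63 at D16. At D22 they held 9.64, 7.37 and 10.9, and at D28 6.73, 9.65 and 7.91. Every cultured library thus lay above every in vivo library up to 30.5 dpp. In vivo the gene was late, with 5.33, 3.51 and 2.31 at 36.5 dpp and 5.83, 11.1 and 5.21 at 53.5 dpp, where the groups overlap with culture. On the log2(FPKM + 1) scale, which understates changes of low genes, D6 exceeded 14.5 dpp by 2.45 (SE 0.15, adjusted p = 0.000692, limma), the ratio of group medians being 7.72. The excess over 14.5 dpp was 1.06 (SE 0.19) at D16, 1.81 (SE 0.19) at D22 and 1.63 (SE 0.19) at D28, with adjusted p of 0.00279, 0.000154 and 0.00021.

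Nqo1, the quinone reductase most often used to read out NRF2 activity, separated culture from testis without overlap. Its in vivo libraries ran from 2.17 to 5.57 FPKM over all 6 ages. The explants held 13.5, 11.8 and 14.9 at D6 and 7.57, 6.80 and 6.80 at D16. They then held 11.5, 9.27 and 13.6 (D22) and 13.0, 10.8 and 10.5 (D28). The low point at D16 is the one seen for Srxn1. Against 14.5 dpp, where the libraries were at 2.57 and 3.10, the log2 difference was 1.91 (SE 0.15, adjusted p = 0.00147) at D6, 1.07 (SE 0.15, adjusted p = 0.000828) at D16 and 1.69 (SE 0.15 each, adjusted p = 7.56e-05 and 5.59e-05) at D22 and D28. Nqo1 was the one member that the F test over the in vivo ages did not call, since its highest and lowest age medians were less than 2-fold apart, although its adjusted p was 0.000358 (limma).

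Hmox1, the inducible haem oxygenase that opens the haem ring and releases iron, was the most abundant member in late culture. At 14.5 dpp it was at 35.2 and 36.8 FPKM. The explants held 74.3, 66.0 and 81.4 at D6, and 35.8, 44.0 and 54.3 at D16. They held 77.6, 89.1 and 74.2 at D22 and 111, 83.7 and 99.5 at D28. All libraries of D6, D22 and D28 lay above the highest in vivo library, 60.9 at 24.5 dpp, while D16 overlapped the testis. The log2 difference from 14.5 dpp was 1.01 (SE 0.14, adjusted p = 0.00905) at D6, 1.13 (SE 0.17, adjusted p = 0.00106) at D22 and 1.41 (SE 0.17, adjusted p = 0.000278) at D28. At D16 it was 0.28 (SE 0.17, adjusted p = 0.239) and did not pass. Macrophages, which clear haem, are a known site of Hmox1. Their summed markers went from between 27.2 and 30.5 FPKM at 14.5 dpp to between 66.2 and 81.6 at D6, 86.2 and 89.6 at D16, 78.2 and 96.1 at D22 and 93.2 and 126 at D28, and their part in the result was not tested.

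The subunits of glutamate-cysteine ligase, the rate-limiting enzyme of glutathione synthesis, moved apart relative to 14.5 dpp testis. Gclc, the catalytic subunit, was at 12.8 and 15.5 FPKM at 14.5 dpp. The explants held 24.2, 23.0 and 19.9 at D6 and 22.6, 21.5 and 22.2 at D16. Later they held 28.2, 29.9 and 24.6 (D22) and 19.7, 27.6 and 24.2 (D28). All cultured libraries lay above those of 14.5 dpp, by 0.61 (SE 0.14, adjusted p = 0.0103) at D16, 0.92 (SE 0.14, adjusted p = 0.00119) at D22 and 0.71 (SE 0.14, adjusted p = 0.00414) at D28 on the log2 scale, all short of 2-fold. Without replicate 1 of 14.5 dpp the D16 value gave adjusted p = 0.0715. Gclm, the modifier subunit that lets the enzyme work at cellular substrate levels, was at 26.3 and 30.2 at 14.5 dpp. It was at 17.3, 16.7 and 19.3 at D16 and 16.9, 18.5 and 15.6 at D28. It differed from 14.5 dpp by -0.64 (SE 0.11, adjusted p = 0.00208) at D16, -0.67 (SE 0.11, adjusted p = 0.0014) at D22 and -0.70 (SE 0.11, adjusted p = 0.000957) at D28, again short of 2-fold. At 8.5 dpp Gclm was at 15.7, 14.3 and 15.1, and in vivo it rose by 0.87 from there to 14.5 dpp. Against 8.5 dpp it was higher at D6 (0.55, adjusted p = 0.00016) and D16 (0.23, adjusted p = 0.0375), short of 2-fold. The D16 value was lost with equal medians (adjusted p = 0.0633). At D22 and D28 it did not pass (0.20 and 0.17, adjusted p = 0.0577 and 0.112).

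In vivo the subunits parted in the other direction. Gclc peaked at 24.5 dpp (23.4, 20.8 and 25.4) and ended at 2.84, 3.54 and 3.39 at 53.5 dpp. Gclm reached 53.4, 51.5 and 48.0 at 30.5 dpp and was still at 38.4, 37.1 and 35.2 at 53.5 dpp. The ratio of Gclm to Gclc, a comparison chosen after the values were seen and given with no test, rose from 1.28 ± 0.02 (SD, n = 3) at 8.5 dpp to 2.00 ± 0.07 (n = 2) at 14.5 dpp and 11.5 ± 1.8 (n = 3) at 53.5 dpp. In culture it was 1.01 ± 0.07 at D6 and 0.804 ± 0.059 at D16, then 0.636 ± 0.065 (D22) and 0.725 ± 0.118 (D28; n = 3 each), below every in vivo library. The germ cell marker sum also rose between 8.5 and 53.5 dpp. From 14.5 to 24.5 dpp its group median went from 195 to 889 FPKM while the mean ratio went from 2.00 to 1.93. At 30.5 dpp the sum was 719 and the ratio 5.52. The sum pools markers that did not move together. Tnp1 and Prm1 were at 0 in all 24.5 dpp libraries, while at 30.5 dpp all 7 matched markers had a median of at least 0.5 FPKM. The part of germ cells in the result was not tested.

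**Figure D2:**
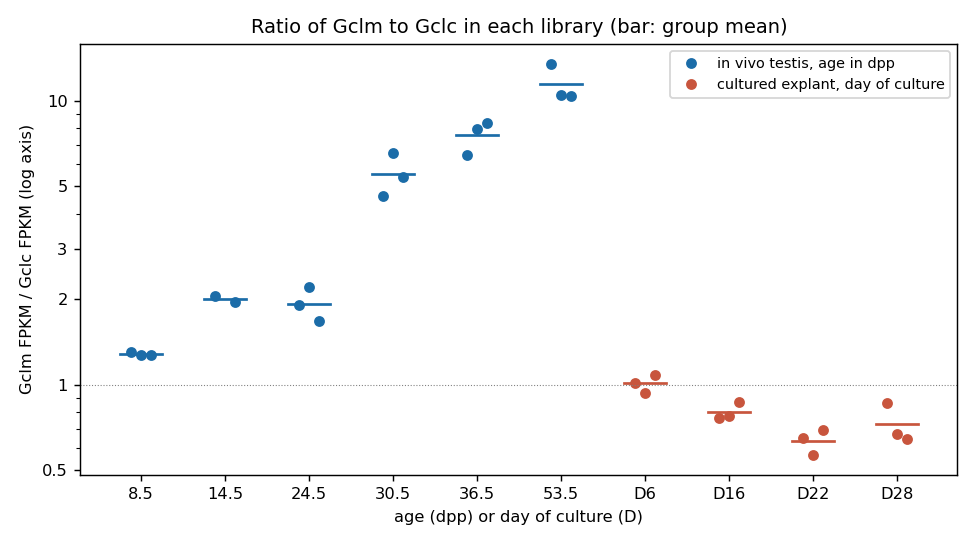
Ratio of Gclm to Gclc FPKM in each library on a log axis, against age in dpp (blue) or day of culture (red), with a bar at each group mean. The ratio climbs from about 1.28 to 11.5 in vivo and stays between 0.565 and 1.08 in the 12 cultured libraries.

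Slc7a11, the cystine transporter that supplies cysteine for glutathione, was the scarcest of the glutathione genes. It was at 0.311, 0.153 and 0.126 FPKM at 8.5 dpp and at 0.624 and 1.23 at 14.5 dpp. At D6 it was at 2.78, 3.03 and 1.74, above all those libraries. It fell back to 0.87, 0.99 and 0.849 at D16 and was at 0.557, 0.93 and 0.632 at D28, overlapping 14.5 dpp. The D6 difference from 14.5 dpp was 0.87 (SE 0.22, adjusted p = 0.0499). It missed the threshold when any 1 of the 5 libraries was left out, with adjusted p between 0.0554 and 0.166. In vivo it was highest at 30.5 dpp (4.66, 6.54 and 4.83). At 24.5 dpp replicate 3 held 0.42 against 4.73 and 4.43 in the others. The same library had the lowest Leydig (66.3 against 357 and 595 FPKM) and macrophage (21.3 against 28.2 and 25.4) marker sums of its group. It had the highest Sertoli (2377 against 1701 and 1544) and germ cell (954 against 821 and 889) sums. Its endothelial, peritubular and red cell sums lay between those of the others. The part of the cell mixture in this value was not tested.

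Txnrd1, the cytosolic thioredoxin reductase, declined along both paths. It went from 32.3, 31.9 and 32.2 FPKM at 8.5 dpp to 6.42, 6.20 and 6.17 at 53.5 dpp. In culture it was at 31.2, 29.3 and 28.5 at D6 and at 16.7, 20.8 and 20.8 at D28. The libraries of D16, D22 and D28 lay below those of 14.5 dpp (28.2 and 21.3), but the differences of -0.31, -0.35 and -0.33 on the log2 scale (SE 0.14 each) had adjusted p of 0.106, 0.0716 and 0.0825. Without replicate 2 of 14.5 dpp they were -0.51, -0.54 and -0.52 with adjusted p of 0.0315, 0.0208 and 0.023. Without replicate 1 of D28 the D22 value alone passed (adjusted p = 0.0429), and in a fit of all 10 groups all 3 passed (adjusted p = 0.0409, 0.0219 and 0.0282).

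The genes that remove superoxide and peroxide had medians within 2-fold of 14.5 dpp at all 4 culture times. Sod2, the mitochondrial superoxide dismutase, was at 65.1 and 54.7 FPKM at 14.5 dpp and between 60.3 and 77.8 in the 12 cultured libraries, which overlap. Its log2 differences of 0.18, 0.25, 0.23 and 0.22 from D6 to D28 did not pass (adjusted p = 0.448, 0.0903, 0.113 and 0.109). With equal medians the D16 and D28 values passed (adjusted p = 0.0430 and 0.0386), as did all 3 later values without replicate 1 of 14.5 dpp (0.0375, 0.0456 and 0.0413). Cat, the peroxisomal catalase, was at 24.2 and 22.8 at 14.5 dpp, at 22.7, 28.3 and 19.6 at D6 and at 15.7, 18.5 and 16.1 at D28. Its D28 value was lower by a log2 difference of -0.47 (SE 0.11, adjusted p = 0.00881), short of 2-fold, and it gave adjusted p = 0.068 in a fit of all 10 groups. Gpx3, the secreted glutathione peroxidase, was at 1.85 and 1.38 at 14.5 dpp, at 2.87, 3.10 and 3.87 at D6 and at 2.11, 2.21 and 2.08 at D28. Its D6 excess was 0.71 (SE 0.16, adjusted p = 0.0343), with a median ratio of 1.92, short of 2-fold. It did not pass when any 1 library was left out, with adjusted p between 0.0541 and 0.126. Its D16 and D28 differences of 0.31 and 0.27 (adjusted p = 0.0597 and 0.0811) passed with equal medians (0.0361 and 0.0372) and without replicate 1 of 14.5 dpp (0.0313 and 0.0375).

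Against 14.5 dpp, a gene was called where limma gave an adjusted p of at most 0.05 and the group medians differed at least 2-fold. At D6 the calls were 4 of the 10 members, all higher (Srxn1, Nqo1, Hmox1 and, at the threshold, Slc7a11), where 7.94% of 11309 genes tested were called and 5.57% were called higher. Without replicate 3 of D6 the count was 2, since Hmox1 then fell short of 2-fold and Slc7a11 did not pass (adjusted p = 0.0554). At D16 they were 2 members (Srxn1 and Nqo1) beside 13.0% of 11517 genes (6.87% higher). D22 had 3 (with Hmox1) beside 13.8% (7.76% higher), and D28 the set of Srxn1, Nqo1 and Hmox1 beside 15.3% (8.40% higher). The F test over D16, D22 and D28 called these 3 beside 16.2%. With no fold filter 6, 4, 5 and 6 members passed in the order of time, where 15.5%, 33.5%, 36.3% and 41.1% of all genes did. Of the 6 at D6, Gclc (0.63, SE 0.15, adjusted p = 0.0394) was lost without any 1 library of D6 (adjusted p between 0.0656 and 0.134). It was also lost with the replicate block (0.0972). Slc7a11 and Gpx3 at D6 were lost when any 1 library was left out, as given above. The median log2 difference of the members was 0.67 at D6 and between 0.22 and 0.27 later, while that of all genes lay between -0.08 and -0.04. These comparisons share the 2 libraries of 14.5 dpp, so a low or high value there enters each of them.

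**Figure D3:**
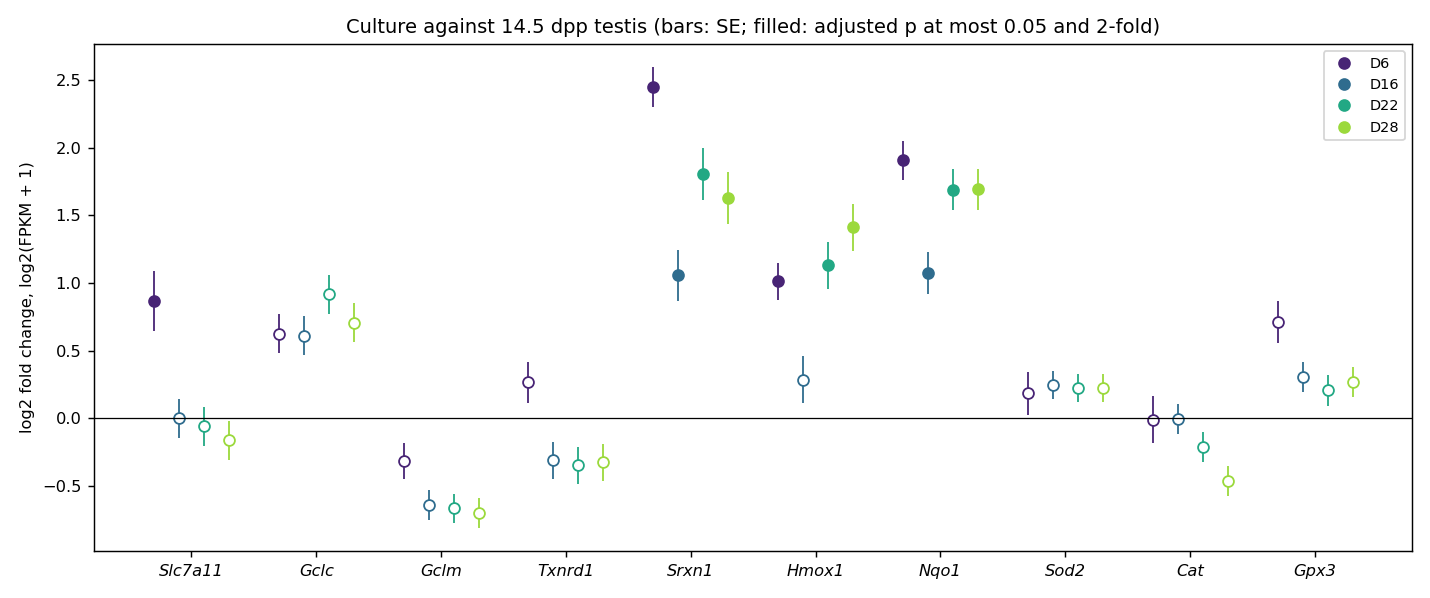
log2 difference of each member from 14.5 dpp testis on the log2(FPKM + 1) scale at D6, D16, D22 and D28, with SE bars and filled points where the adjusted p was at most 0.05 and the medians differed at least 2-fold. Srxn1 and Nqo1 are filled at all 4 times, Hmox1 at 3 and Slc7a11 at D6 alone.

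Against 8.5 dpp, the age at which the explants were taken, the calls were 4, 2, 5 and 5 members at D6, D16, D22 and D28, all higher, beside 16.1%, 22.1%, 23.5% and 24.0% of 11539 genes (9.90%, 12.4%, 13.6% and 13.6% higher). With no fold filter 7, 9, 8 and 8 members passed beside 48.2%, 58.1%, 59.5% and 59.7%. Slc7a11 passed the filter on low values here only through culture, its 8.5 dpp median being under 0.5 FPKM, so its calls are no independent support. Srxn1 and Slc7a11 were called at all 4 times, Hmox1 and Nqo1 at D6, D22 and D28, and Gclc at D22 and D28. Srxn1 exceeded 8.5 dpp by 3.32 (SE 0.14, adjusted p = 3.11e-09) at D6 and by 2.49 (SE 0.14, adjusted p = 8.42e-09) at D28. Slc7a11 exceeded it by 1.54 (SE 0.13, adjusted p = 1.09e-06) at D6 and by 0.51 (SE 0.13, adjusted p = 0.00462) at D28. Its later calls were lost when all 10 groups shared a single estimate of spread, with adjusted p of 0.1, 0.132 and 0.214 at D16, D22 and D28. Members that fell without reaching 2-fold were Txnrd1 and Gpx3, by 0.70 and 0.72 on the log2 scale at D28 (SE 0.09 and 0.11, adjusted p = 1.21e-05 and 0.000107). Sod2 rose short of 2-fold at all 4 times, by 0.63, 0.69, 0.67 and 0.67 (adjusted p = 0.000135, 4.16e-05, 4.99e-05 and 5.03e-05). Other rises short of 2-fold were those of Gclc (0.87 and 0.86) and Gclm at D6 and D16, and of Nqo1 (0.51) and Hmox1 (0.41) at D16. The D16 values of Gclm and Hmox1 were lost without some single libraries.

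Within culture, most members were lower at D16 than at D6. The study had set D6 aside for its cell composition, whose part in these differences was not tested. From D6 to D16, 7 of the 10 fell and none rose at an adjusted p of at most 0.05, where 8.22% of 11358 genes fell and 7.25% rose (15.5% in all). Calls of at least 2-fold were Srxn1 (log2 difference -1.39, SE 0.15, adjusted p = 0.000319) and Slc7a11 (-0.87, SE 0.14, adjusted p = 0.00286), beside 3.00% of all genes. The Slc7a11 value did not pass in a fit of all 10 groups (adjusted p = 0.0892). The other members that fell were Nqo1, Hmox1, Txnrd1, Gpx3 and Gclm. Gclm (-0.33, adjusted p = 0.0349) did not pass with equal medians (0.0502), with the replicate block (0.0516) or without any of 7 single libraries (up to 0.126), and Gpx3 (-0.40, adjusted p = 0.0234) did not pass without replicate 3 of D6 or replicate 2 or 3 of D16 (0.0815, 0.0787 and 0.0904). Gclc, Sod2 and Cat differed by -0.01, 0.06 and 0.00 and did not pass. From D16 to D28 Hmox1 alone was called (1.13, SE 0.16, adjusted p = 0.00663), where 0.828% of all genes were. With no fold filter, where 2.44% of all genes passed, Nqo1 also rose (0.62, SE 0.14, adjusted p = 0.0423). The Nqo1 value was lost in most fits that left out a single library, with adjusted p of up to 0.134. These were the fits without replicate 1 or 2 of D6, any replicate of D16, replicate 1 of D22 or replicate 1 or 3 of D28. From D6 to D28 Slc7a11 alone was called (-1.03, SE 0.14, adjusted p = 0.000537), beside 5.69% of all genes, and without replicate 2 of D28 the count was 2, since Srxn1 then reached 2-fold. With no fold filter 6 members passed beside 23.7% of all genes.

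Comparison with testis of the same age needs its own baseline, since most genes moved with it. The median log2 difference of all genes tested was 0.12 for D16 against 24.5 dpp, 0.51 for D22 against 30.5 dpp and 0.64 for D28 against 36.5 dpp. Setting the libraries to equal medians shifted the values by 0.04, -0.31 and -0.47. Calls were 4, 9 and 10 of the 10 members beside 43.6%, 65.0% and 70.3% of all genes. The 9 at D22 were 7 higher and 2 lower (42.1% and 22.9% of all genes) and the 10 at D28 were 8 higher and 2 lower (46.7% and 23.6%), so the later counts stand close to a background in which most genes were called. At D28 the excess of Cat over 36.5 dpp was 2.56 (SE 0.19, adjusted p = 7.59e-06), which is 1.91 above the median gene. That of Hmox1 was 2.10 (SE 0.13, adjusted p = 3.82e-06) or 1.45 above the median gene, whereas at D16 Hmox1 differed from 24.5 dpp by -0.37 (adjusted p = 0.0691), which passed as lower in a fit of all 10 groups (0.0191) and without replicate 3 of D16 (-0.52, adjusted p = 0.0180). At D28 the excess of Gclc was 1.84 (SE 0.14, adjusted p = 9.71e-06) or 1.197 above it. Nqo1 stood 1.01, Gpx3 0.83, Sod2 0.67, Txnrd1 0.47 and Srxn1 0.34 above the median gene. Gpx3 passed the filter at D22 and D28 only through culture, its in vivo medians there being under 0.5 FPKM. Srxn1 was no longer past the threshold with equal medians (0.51, adjusted p = 0.0596).

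The members called lower than testis of the same age were Gclm and Slc7a11. Gclm differed by -1.27 (SE 0.09, adjusted p = 4.02e-05) from 24.5 dpp at D16, by -1.50 (SE 0.09, adjusted p = 5.12e-06) from 30.5 dpp at D22 and by -1.33 (SE 0.11, adjusted p = 1.43e-05) from 36.5 dpp at D28. Slc7a11 differed by -1.79 (SE 0.13, adjusted p = 1.26e-05) at D22 and by -1.21 (SE 0.23, adjusted p = 0.00172) at D28. At D16 its difference of -0.89 (SE 0.51, adjusted p = 0.157) did not pass, and without replicate 3 of 24.5 dpp it was -1.55 (adjusted p = 3.44e-05).

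**Figure D4:**
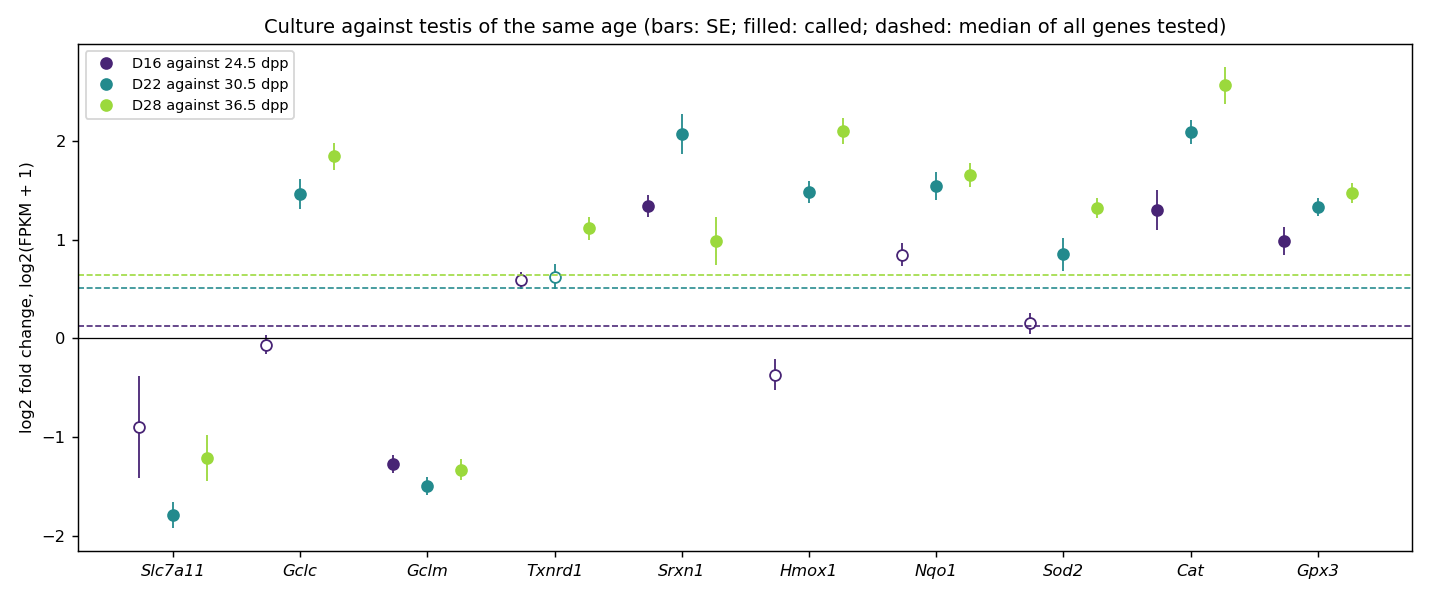
log2 difference of each member between explants and testis of the same age on the log2(FPKM + 1) scale, with SE bars, filled points for calls and a dashed line at the median of all genes tested in each comparison. Slc7a11 and Gclm lie below 0, and the medians of all genes stand at 0.12, 0.51 and 0.64.

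In vivo, the members followed separate courses. Cat fell from 24.2 and 22.8 FPKM at 14.5 dpp to 7.18, 7.69 and 12.6 at 24.5 dpp and to 1.52, 2.01 and 2.01 at 53.5 dpp. Gpx3 declined from 3.84, 5.04 and 3.71 at 8.5 dpp to 0.0385, 0.0985 and 0.0925 at 53.5 dpp. Sod2 held between 58.4 and 70.5 at 24.5 dpp and was at 15.6, 16.4 and 17.7 at 53.5 dpp. From 8.5 to 53.5 dpp the log2 difference was -2.82 (SE 0.20, adjusted p = 3.27e-09) for Cat, -2.26 (SE 0.12, adjusted p = 1.68e-10) for Gpx3, -2.19 (SE 0.11, adjusted p = 8.94e-11) for Txnrd1, -1.58 (SE 0.13, adjusted p = 1.45e-08) for Gclc and -1.35 (SE 0.14, adjusted p = 2.34e-07) for Sod2. The median gene moved by -0.74 over the same span. Gclm (1.24, SE 0.08, adjusted p = 2.12e-09) and Srxn1 (2.32, SE 0.26, adjusted p = 5.66e-07) went the other way. Gpx3 passed the filter on low values only through the younger ages, its medians from 30.5 dpp on being under 0.5 FPKM. Its calls at 30.5 and 53.5 dpp are therefore no independent support. Hmox1 and Nqo1 passed with no fold filter (-0.68 and -0.78), but these signs flipped with equal medians (0.12 and 0.02), a scaling that shifted the median gene by 0.80.

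These 7 calls, with Gpx3 among them, stood beside 73.9% of 12531 genes, 50.2% of which were lower and 23.7% higher as a share of those tested. Between neighbouring ages the calls were 2, 2, 3, 2 and 0 of 10 members beside 14.7%, 35.6%, 37.6%, 7.49% and 6.54% of all genes. The Srxn1 call at 14.5 dpp was lost without any 1 library of 8.5 dpp or replicate 2 of 14.5 dpp (adjusted p up to 0.215). At 36.5 dpp the Srxn1 call was lost without replicate 3 of 30.5 dpp or replicate 1 of 36.5 dpp (0.0732 and 0.0662) and the Cat call without replicate 3 of either age (0.0578 and 0.0681). With no fold filter 6, 6, 5, 6 and 5 members passed beside 38.6%, 60.0%, 68.8%, 34.0% and 38.4% of all genes. The step from 24.5 to 30.5 dpp took Gclc down by 1.22 (SE 0.13, adjusted p = 1.7e-06), Hmox1 by 1.003 (SE 0.11, adjusted p = 3.14e-06) and Gpx3 by 0.45 (SE 0.12, adjusted p = 0.00473), of which the Gpx3 value was -0.11 (adjusted p = 0.448) with equal medians. The F test over the 6 ages called 9 of 10 members and 90.2% of all genes.

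The other genes of the system were taken from 9 lists with 94 matched genes, of which 75 were tested against 14.5 dpp. At D28, 12 rose and none fell, where 8.40% of all genes were called higher and 6.88% lower, and their median log2 difference was 0.16 against -0.08 for all genes. At D6, D16 and D22 the counts were 7, 7 and 9 higher and none lower, where 5.57%, 6.87% and 7.76% of all genes were called higher and 2.37%, 6.14% and 5.99% lower. Cybb at D16, and Cybb and Xdh at D22 and D28, are in these counts but passed the filter only through culture. They are no independent support. Other baselines gave other counts. Against 8.5 dpp 8, 10, 10 and 12 of the 75 were higher and 4, 8, 9 and 8 lower from D6 to D28, where 9.90%, 12.4%, 13.6% and 13.6% of all genes were higher and 6.23%, 9.72%, 9.92% and 10.5% lower. Of the higher, Aox1 and Xdh at D6, and Aox1, Cybb and Xdh later, had a median under 0.5 FPKM at 8.5 dpp. Of the lower, Gsta3 at D6, D16 and D28 and Nox4 at D22 and D28 had such a median in culture. Against 36.5 dpp D28 had 52 higher and 9 lower of 74, beside 46.7% and 23.6%. There 7 called genes had a median under 0.5 FPKM at 36.5 dpp, and Gsta5 had one at D28. The calls of such genes are no independent support with these baselines either. By list, 4 of the 14 glutathione transferase and export genes tested, 2 of 10 superoxide dismutase and glutathione peroxidase genes, 1 of 13 thioredoxin and peroxiredoxin genes, 1 of 6 other detoxification genes and 1 of 10 NRF2 regulators rose at D28. Of the 10 oxidant-producing oxidase genes 5 were tested and Cybb, Ncf1 and Xdh were called, but Cybb and Xdh passed the filter only through culture, so that count is not read as a result. No gene of the lists for glutathione supply and recycling (6 tested), NADPH supply (6) or haem and iron handling (5) was called at D28.

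**Figure D5:**
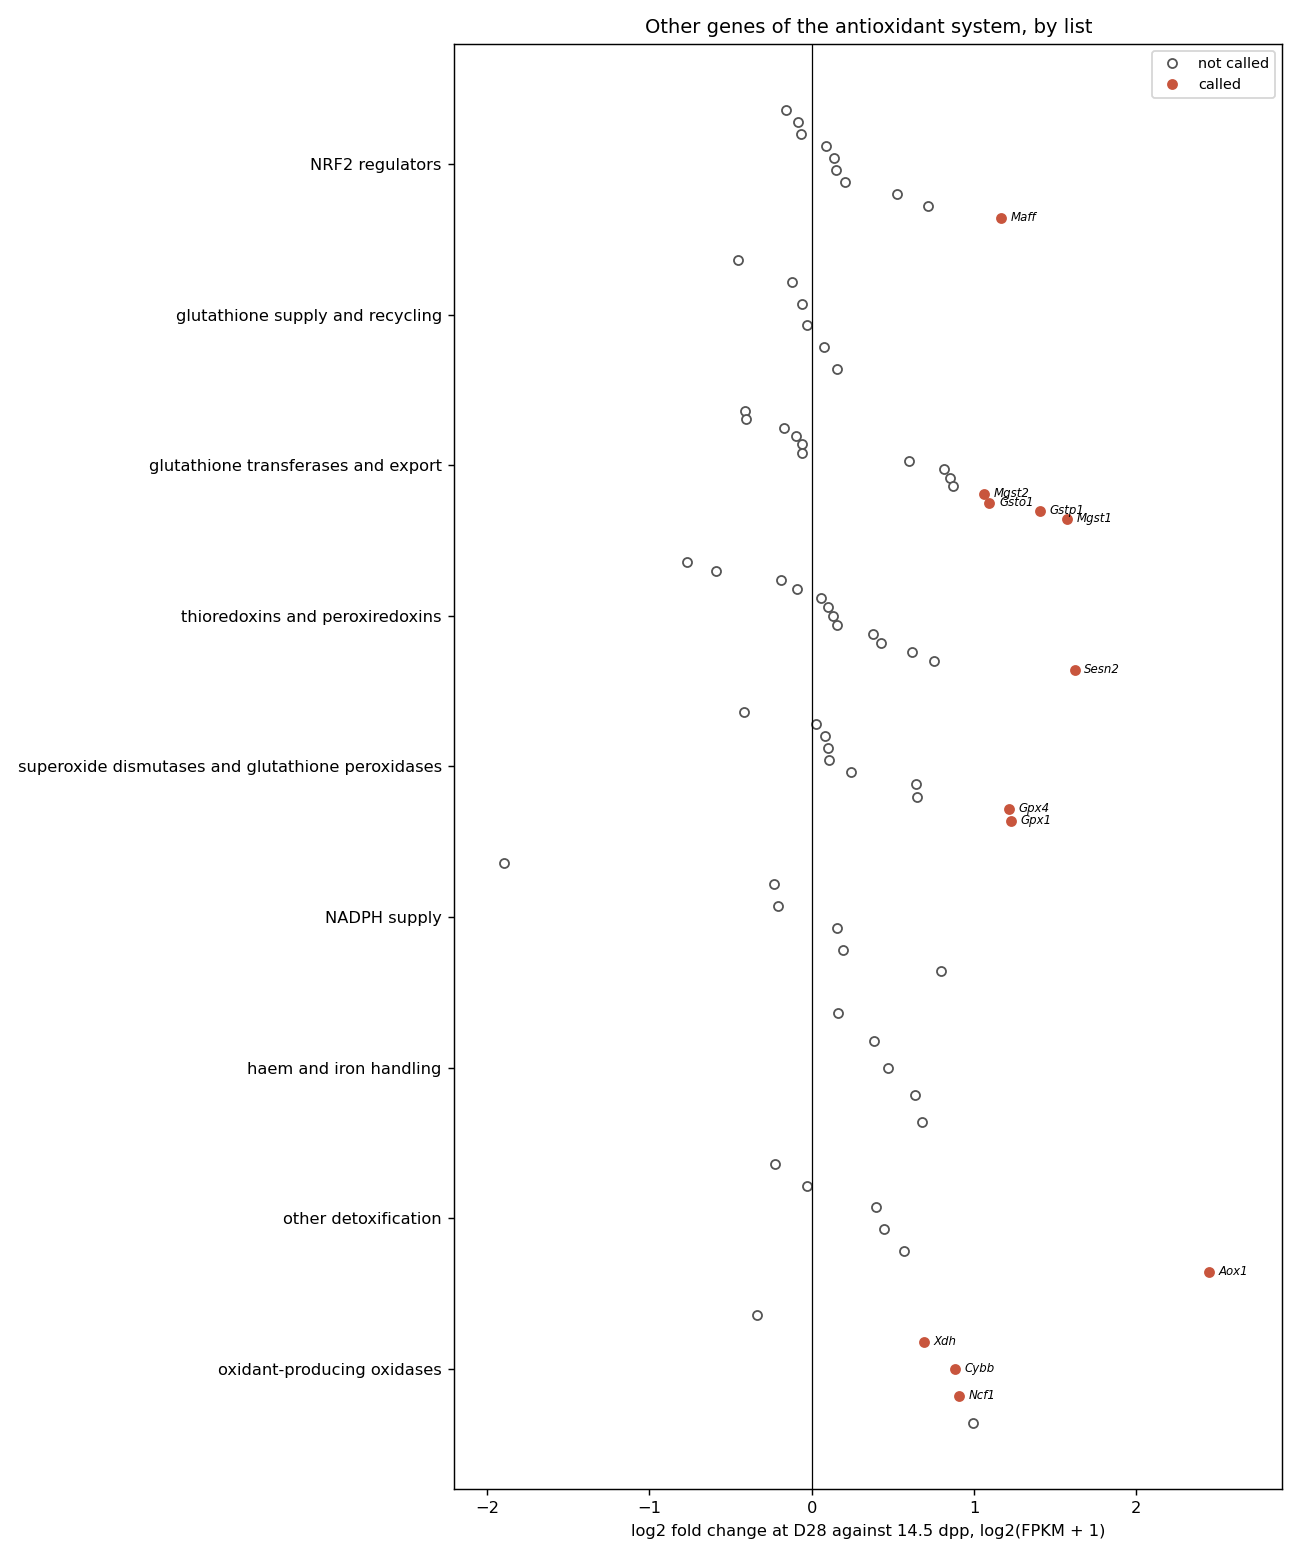
log2 difference at D28 from 14.5 dpp on the log2(FPKM + 1) scale for the 75 tested genes of 9 lists, 1 point a gene, filled and named where called. The 12 called genes all lie above 0, and Cybb and Xdh among them passed the filter on low values only through culture.

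Of the regulators, Nfe2l2 itself was at 58.5 and 61.6 FPKM at 14.5 dpp and between 82.9 and 100.1 in all cultured libraries, above all in vivo libraries. Its log2 difference was 0.70 (SE 0.09, adjusted p = 0.000562) at D16, 0.60 (SE 0.09, adjusted p = 0.000991) at D22 and 0.53 (SE 0.09, adjusted p = 0.0017) at D28, short of 2-fold. At D6 it was 0.54 (SE 0.11, adjusted p = 0.0315) and was lost without any 1 library (adjusted p between 0.0576 and 0.115). Keap1 lay between 16.8 and 23.8 in culture and at 17.9 and 18.3 at 14.5 dpp, and against that age passed at no time. Against testis of the same age it was lower at D16, D22 and D28 (-0.29, -0.62 and -0.34, adjusted p = 0.0496, 0.000262 and 0.0393), short of 2-fold. Bach1 was at 3.09 and 3.43 at 14.5 dpp and between 3.45 and 5.53 in culture, and passed at D16 only (0.33, SE 0.09, adjusted p = 0.0226), a value lost without replicate 2 of 14.5 dpp (adjusted p = 0.109) or of D16 (0.0769). Maff, a small MAF partner, was at 2.27 and 3.38 at 14.5 dpp, between 5.58 and 6.19 at D16 and between 6.42 and 8.66 at D28, a log2 difference of 1.16 (SE 0.15, adjusted p = 0.000338) at D28. It lay between 4.77 and 6.38 at 8.5 dpp and between 3.68 and 7.27 at 53.5 dpp, overlapping D16, and against 8.5 dpp it was called at no time (0.10, adjusted p = 0.533, at D16 and 0.39, adjusted p = 0.0182, at D28).

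Among the enzymes called at D16, D22 and D28, Mgst1, a microsomal glutathione transferase, was at 86.0 and 165 FPKM at 14.5 dpp and between 350 and 367 at D28 (1.57, SE 0.22, adjusted p = 0.000558). Sesn2, a stress-induced sestrin, was at 9.21 and 21.4 at 14.5 dpp and between 42.5 and 47.9 at D28 (1.62, SE 0.27, adjusted p = 0.00133). Aox1, an aldehyde oxidase that itself yields oxidants, was at 0.302 and 1.19 at 14.5 dpp and between 7.29 and 8.71 at D28 (2.44, SE 0.27, adjusted p = 0.000145). These groups did not overlap, although the 14.5 dpp libraries were far apart. Cybb and Ncf1 encode parts of the phagocyte NADPH oxidase. Cybb was at 0.239 and 0.306 at 14.5 dpp and between 1.03 and 1.67 at D28 (0.88, SE 0.14, adjusted p = 0.00101). It passed the filter only through culture, so its calls are no independent support. Ncf1 was at 0.596 and 0.621 at 14.5 dpp and between 1.71 and 2.27 at D28 (0.90, SE 0.10, adjusted p = 0.000167). At 8.5 dpp Ncf1 lay between 1.03 and 1.21, and against that age it was called at no culture time. Its D28 difference there was 0.52 (SE 0.08, adjusted p = 0.000104), short of 2-fold. Macrophage markers were higher at D28 than at 14.5 dpp, as given for Hmox1, and their part in the result was not tested.

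The 3 genes whose log2(FPKM + 1) followed each member most closely over the 29 libraries were picked from 12762 genes. They are a description over libraries that share the contrasts of age and culture. For Nqo1 they were Adgrb1, Cebpd and Ch25h (Pearson r = 0.957, 0.957 and 0.956), for Srxn1 Ptprn, Galnt14 and Bcl3 (0.922, 0.889 and 0.884) and for Hmox1 Ralgdsl1, Tmco4 and Sipa1l2 (0.943, 0.933 and 0.932). Gclc was nearest to Cyb5b, Uso1 and Dazap2 (0.981, 0.979 and 0.979), and Gclm to Chfr, Golga3 and Tuba3a (0.981, 0.98 and 0.978). Slc7a11 was nearest to Zfp384, Pik3r3 and Echdc1 (0.855, 0.837 and 0.833) and Txnrd1 to Rpl8, Actg1 and Ugdh (0.974, 0.974 and 0.974). Sod2 was nearest to Zmynd11, Rcor1 and Atp6v1b2 (0.982, 0.981 and 0.979), Cat to Bivm, Gprasp3 and Slc50a1 (0.990, 0.990 and 0.990) and Gpx3 to Plekha4, Man1c1 and Spry1 (0.987, 0.987 and 0.986). None of these 30 genes was in the 9 lists.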

How the data were processed

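Gene expression was measured by poly(A) RNA sequencing (stranded libraries, single reads of 50 bp). The authors aligned reads to rn6 with STAR 2.5.2a in a 2-pass mode, and the deposited FPKM were estimated with StringTie and Ballgown for 17322 Entrez genes, 17172 of which have a symbol in the RefSeq table used (GRCr8, for names and promoters only). The table gives no counts, so depth is known only relative to the other libraries, and no counting interval is given. The column of 14.5 dpp replicate 3, at 0 for all 17322 genes, was left out.

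Groups were compared with limma 3.58.1 (R 4.3.3) on log2(FPKM + 1), keeping genes whose median reached 0.5 FPKM in any group of that fit, with Benjamini-Hochberg adjustment over all genes tested. A gene was called where its adjusted p did not exceed 0.05 and its group medians stood at least 2-fold apart. D16, D22 and D28 were fitted jointly with 14.5 dpp. D6 was fitted separately, since the study had removed it for its cell composition. p-values measure the spread between libraries, which are single testes in vivo and pools over animals in culture. They do not measure the spread between animals in culture. The steps were tested on simulated data. Of other pathway genes (94 of 95 listed matched; Nfe2l1 was not), Nfe2l2, Keap1 and Bach1 are named, and per list up to 4 genes with the greatest D28 change among those called at D16, D22 and D28. Members and lists were chosen with earlier results of these data known. Alternatives were other pseudocounts, filters, scaling, variance priors, a fit of all 10 groups, a replicate block, and leaving out each library.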

Additional observations from a re-analysis of the deposited data

Results flagged for a closer look

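The effect of culture was compared between the start and the end of the period in 1 fit, as the difference of D28 from 36.5 dpp minus the difference of D6 from 14.5 dpp (limma, adjusted p of at most 0.05). Of 12482 genes tested 76.5% passed, and so did 9 of the 10 members, all but Nqo1. The median of all genes was 0.63 on the log2 scale, so the members are best read against that value. Slc7a11 differed by -2.08 (adjusted p = 0.000393), its culture effect going from 0.87 to -1.21. Srxn1 differed by -1.46 (adjusted p = 0.00202), its effect going from 2.45 to 0.99, and Gclm by -1.01 (adjusted p = 0.000163), from -0.31 to -1.33. Cat differed by 2.57 (adjusted p = 1.2e-05), from -0.01 to 2.56. Gclc differed by 1.22, Sod2 by 1.13, Hmox1 by 1.09, Txnrd1 by 0.85 and Gpx3 by 0.76. With libraries set to equal medians Txnrd1 (0.34, adjusted p = 0.139) and Gpx3 (0.25, adjusted p = 0.247) no longer passed, while Nqo1 did (-0.76, adjusted p = 0.00603). That scaling changed the share of higher among passing genes from 66.6% to 52.0%, and the members from 6 higher and 3 lower to 4 and 4. The in vivo arms of the 2 ages differ far more in germ cell markers than the cultured arms, and their part in the result was not tested.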

How the results depend on the processing

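Of the Srxn1 and Nqo1 differences from 14.5 dpp at the 4 culture times, and the Hmox1 differences at D22 and D28, each kept its direction and its adjusted p under every alternative run. Without the fold filter more members passed: against 14.5 dpp 4, 5 and 6 at D16, D22 and D28 and 6 in the F test, against 8.5 dpp 7, 9, 8 and 8 in order of culture time, between neighbouring in vivo ages 6, 6, 5, 6 and 5, and within culture 7 from D6 to D16, 2 from D16 to D28 and 6 from D6 to D28. With all 10 groups in 1 fit the counts were 1 for D16 against 8.5 dpp, 1 for 53.5 against 36.5 dpp and 1 for D16 against D6. With equal medians, signs reversed for Cat at D16 (0.0697) and D6 (0.0359) and Slc7a11 at D22 (0.0112) against 14.5 dpp, for Gclm at 53.5 against 36.5 dpp (0.0920), and for Hmox1 (0.123) and Nqo1 (0.0162) at 53.5 against 8.5 dpp. Among called genes, 53.5 dpp against 36.5 dpp had 40% higher as deposited and 80.3% with equal medians. The cause was not tested.

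Deviations of same-numbered libraries had correlations from -0.14 to 0.22 (median 0.017, over 126 pairs). Within culture the median was 0.048 for the same number (18 pairs) and -0.017 for other numbers (36 pairs). The libraries were not treated as paired, but with 2 or 3 libraries a group these values cannot exclude shared batches. With the replicate number as a block, D6 against 14.5 dpp gave 2 calls instead of 4, and Cat changed sign at D6 (0.11) and at D16 (0.000228).

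Leaving out 1 library gave 2 to 3 calls for D6 against 14.5 dpp, 1 to 3 for 14.5 against 8.5 dpp, 0 to 2 for 36.5 against 30.5 dpp (0 without replicate 3 of 30.5 dpp), 0 to 1 for 53.5 against 36.5 dpp and 1 to 2 for D28 against D6. Some differences that did not pass also changed sign. Against 14.5 dpp, Slc7a11 ran from -0.228 to 0.228 at D16, from -0.288 to 0.169 at D22 and from -0.391 to 0.0655 at D28, and Cat from -0.0600 to 0.0700 at D16 and from -0.145 to 0.108 at D6. The D16 difference of Gclc from 24.5 dpp ran from -0.136 to 0.00203, positive only without replicate 3 of 24.5 dpp. The 2 libraries of 14.5 dpp and the unknown read depth limit the precision of low genes such as Slc7a11.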
